A study of Mus musculus with 10 samples.

Results

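A set of 10 genes of the vessel wall and of smooth muscle was followed across 10 mouse tumors. They are 10 of the 21959 genes in the deposited table, and they were taken by name. The 5 contractile genes are Acta2, Tagln, Myh11, Cnn1 and Des, and the 5 pericyte genes are Rgs5, Pdgfrb, Cspg4, Mcam and Notch3. The tumors came from 4T1, a carcinoma line of the mouse mammary gland, placed under the abdominal skin of female BALB/c mice that were 5 to 6 weeks old when obtained. The 5 mice of the exercise group (E) had access to a running wheel without limits on speed or distance for 21 days, and the 5 mice of the non-exercise group (NE) were housed normally, so that both groups carried the same graft and neither had a further treatment. Tumor pieces were sequenced as bulk RNA, 1 library per mouse (E1 to E5 and NE1 to NE5), with 15045613 to 23092251 counted reads.

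Pericytes are mural cells that wrap capillaries and small venules. They depend on PDGF-B released by endothelial cells, which acts on the receptor encoded by Pdgfrb, and on contact signals through NOTCH3. Smooth muscle cells of larger vessels contract through Acta2 and Myh11, under the control of the transcription factor SRF and its myocardin partners, which bind CArG boxes. Several of these genes have a second source in a tumor piece, since Acta2 and Pdgfrb are also on in activated fibroblasts, Mcam in endothelial and some carcinoma cells, and Des in skeletal muscle fibers.

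Promoter sequence is shown for Acta2, Des and Rgs5 (mouse RefSeq, GRCm38.p6). A promoter was found for 7 of the 10 genes, and the 250 bases before the start were searched for CArG boxes and for CAGCTG, an E box of the kind bound by muscle regulatory factors. Both motifs read alike on either strand. The first pair of lines is from Acta2, the classical CArG-dependent gene, with capitals on its CArG-like decamers, each with 1 mismatch (minus strand of chromosome 19).
Acta2, chr19:34255438-34255467: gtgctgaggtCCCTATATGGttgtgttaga
Acta2, chr19:34255388-34255417: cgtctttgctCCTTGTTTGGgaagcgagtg
The line of Des (plus strand of chromosome 1) is shown because this gene went with skeletal muscle in the tumor pieces, and its capitals mark CAGCTG.
Des, chr1:75360042-75360291: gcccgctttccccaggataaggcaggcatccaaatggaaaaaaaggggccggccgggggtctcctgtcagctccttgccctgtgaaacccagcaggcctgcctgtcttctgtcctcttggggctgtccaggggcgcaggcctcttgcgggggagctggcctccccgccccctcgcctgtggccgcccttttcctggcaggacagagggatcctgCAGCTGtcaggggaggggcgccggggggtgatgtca
The line of Rgs5, the pericyte marker with the highest median level, held neither motif (plus strand of chromosome 1).
Rgs5, chr1:169655251-169655500: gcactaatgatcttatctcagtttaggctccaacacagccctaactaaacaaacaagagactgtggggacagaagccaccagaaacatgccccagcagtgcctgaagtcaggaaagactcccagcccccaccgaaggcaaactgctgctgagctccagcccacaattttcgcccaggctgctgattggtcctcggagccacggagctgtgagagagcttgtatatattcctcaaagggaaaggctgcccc
Cspg4 also held 2 overlapping CArG boxes with 1 mismatch, and Acta2 a CAGCTG, while Cnn1, Mcam and Notch3 held no match. These motifs are not rare, as 18.6% of 32851 mouse promoter windows of this length held a CArG box with at most 1 mismatch, 1.47% one without a mismatch and 13.0% a CAGCTG.

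The libraries NE4, E5 and NE5 stood apart in their marker genes. Marker scores were computed as the mean of log2(CPM + 1), where CPM is the TMM-scaled read count relative to library size, over lists that held none of the 10 genes. The skeletal muscle score ran from 0.62 in NE1 to 9.86 in NE4, against 7.03 in the next highest tumor (E2), and the summed level of its 12 markers ran from 8.32 to 24455 CPM in NE and from 253 to 3347 CPM in E. The fibroblast score was highest in E5 (9.06) and NE4 (8.02) and lowest in NE1 (5.56). The endothelial cell score spanned only 0.85, and its highest values were again those of NE4 (4.02) and E5 (3.94), against at most 3.41 elsewhere. All 12 muscle, 12 endothelial, 10 fibroblast and 6 basal or myoepithelial markers had a read in at least 1 tumor. Only 11 of the 12 muscle and 2 of the 6 basal or myoepithelial markers passed the filter on low counts. The basal or myoepithelial score, of a cell type that also makes smooth muscle actin, was 4.37 in NE5 and 1.54 to 1.90 in the other 9 tumors, while the summed markers ran from 276 to 468 CPM. NE4 was also highest in the adipocyte score (3.29, against at most 2.01 elsewhere) and the Schwann cell score (2.12, against at most 1.53). The part of these other cell types in the results was not tested. The 5 luminal epithelial markers summed to only 10.3 to 24.7 CPM, and 3 of them passed the filter on low counts. In bulk tissue, fewer cells of a type and less RNA per cell cannot be told apart.

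Among the contractile genes, the levels per length differed widely. Acta2, smooth muscle alpha-actin, was at 14.6, 16.9, 10.6, 18.3 and 29.3 FPKM in E1 to E5 and at 9.47, 12.5, 10.3, 21.7 and 12.1 FPKM in NE1 to NE5. The groups overlapped, and E5 and NE4 were the highest tumors. Its transcript shares no stretch of 50 bases with Acta1, the skeletal alpha-actin, and 7 of its 1986 such stretches with other genes, each of the 7 also found in the pseudogene Actg-ps1. Acta1 ran from 1.07 FPKM in NE1 to 4023 FPKM in NE4.

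Myh11, the smooth muscle myosin heavy chain and the strictest marker of mature smooth muscle in the set, was low. It was at 0.586, 1.14, 0.460, 0.880 and 1.64 FPKM in E1 to E5 and at 0.262, 0.556, 0.672, 2.39 and 0.689 FPKM in NE1 to NE5. The order of the tumors resembled that of Acta2 at the top and the bottom, with NE4 and E5 highest and NE1 lowest. Of its 6500 stretches of 50 bases, 26 also occur in Myh9, the nonmuscle myosin heavy chain.

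Cnn1, calponin, had only 7 to 36 reads per tumor, at 0.124 to 0.353 FPKM in E and 0.129 to 0.570 FPKM in NE. Its highest tumor was NE1, which was the lowest for Acta2, Myh11, Des and Rgs5. Tagln, transgelin or SM22-alpha, had 5, 8, 8, 7 and 3 reads in E1 to E5 and 4, 2, 3, 7 and 1 reads in NE1 to NE5, which is 0.0235 to 0.216 FPKM. It was the only 1 of the 10 genes that did not pass the filter on low counts. These few reads are hard to read as expression. In the GRCm38 annotation (GENCODE), 747 of its 1546 stretches of 50 bases (48.3%) also occur in another gene, 688 of them in the antisense gene Gm48529. In the table's own coordinates, the only gene that overlaps it is Pcsk7, on the opposite strand, by 108 bp. Pcsk7 was at 6.88 to 8.23 FPKM. The skeletal muscle marker Tnnc2, which overlaps Ube2c on the opposite strand by 1662 bp, had at most 3 reads where its partner in the thin filament, Tnni2, reached 759 FPKM. Whether the counting used strand is not stated, and the part of these overlaps and shared stretches in the counts was not tested.

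Des, the desmin intermediate filament of all muscle types, varied most. It was at 36.6, 66.3, 9.47, 10.1 and 14.9 FPKM in E1 to E5 and at 0.773, 24.1, 36.4, 213 and 4.93 FPKM in NE1 to NE5. The highest tumor had 276 times the lowest, against 9.18 times for Tagln and 9.12 times for Myh11, the next widest genes. Without NE4, the span of Des was still 85.8 times. Of its 2979 stretches of 50 bases, 173 occur in the antisense gene Gm15179.

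Rgs5, a regulator of G-protein signaling that is a standard pericyte marker, was at 5.51, 9.17, 5.99, 8.41 and 14.5 FPKM in E1 to E5 and at 3.57, 5.94, 6.95, 19.5 and 8.61 FPKM in NE1 to NE5. As for Myh11, the top of the order was NE4 and then E5, and the lowest tumor was NE1. The FPKM ratio of Myh11 to Rgs5 stayed between 0.0734 and 0.124 over all 10 tumors, a span of 1.69 times, whereas the ratio of Des to Rgs5 spanned 50.5 times. Pdgfrb, the PDGF-B receptor, was at 3.69, 5.13, 4.80, 6.92 and 13.7 FPKM in E1 to E5 and at 3.93, 3.08, 4.29, 6.92 and 5.07 FPKM in NE1 to NE5. Its highest tumor was E5, and the next highest, E4 and NE4, were level.

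Mcam, the adhesion molecule CD146, was the most even gene of the set. It was at 6.30, 6.12, 8.52, 7.47 and 11.2 FPKM in E1 to E5 and at 9.88, 6.64, 6.03, 8.0 and 6.94 FPKM in NE1 to NE5, a span of 1.86 times. Its highest tumors were E5 and NE1, the second of which was the lowest for Rgs5. Notch3, the NOTCH receptor of mural cells, was at 0.504 to 1.35 FPKM in E and 0.658 to 1.51 FPKM in NE, with NE4 and E5 highest. Cspg4, the proteoglycan NG2, was at 0.252 to 0.382 FPKM in E and 0.195 to 0.482 FPKM in NE, with NE4 highest. By median FPKM the order was Des (19.5), Acta2 (13.5), Rgs5 (7.68), Mcam (7.20), Pdgfrb (4.93), Notch3 (0.917), Myh11 (0.680), Cspg4 (0.279), Cnn1 (0.257) and Tagln (0.111), and the ranges over tumors of neighbors in this order overlapped except those of Pdgfrb and Notch3. Notch3 shares 399 of its 7967 stretches of 50 bases with other genes, 392 of them with Gm17276. Rgs5, Pdgfrb, Cspg4, Mcam and Cnn1 share none.

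**Figure D1:**
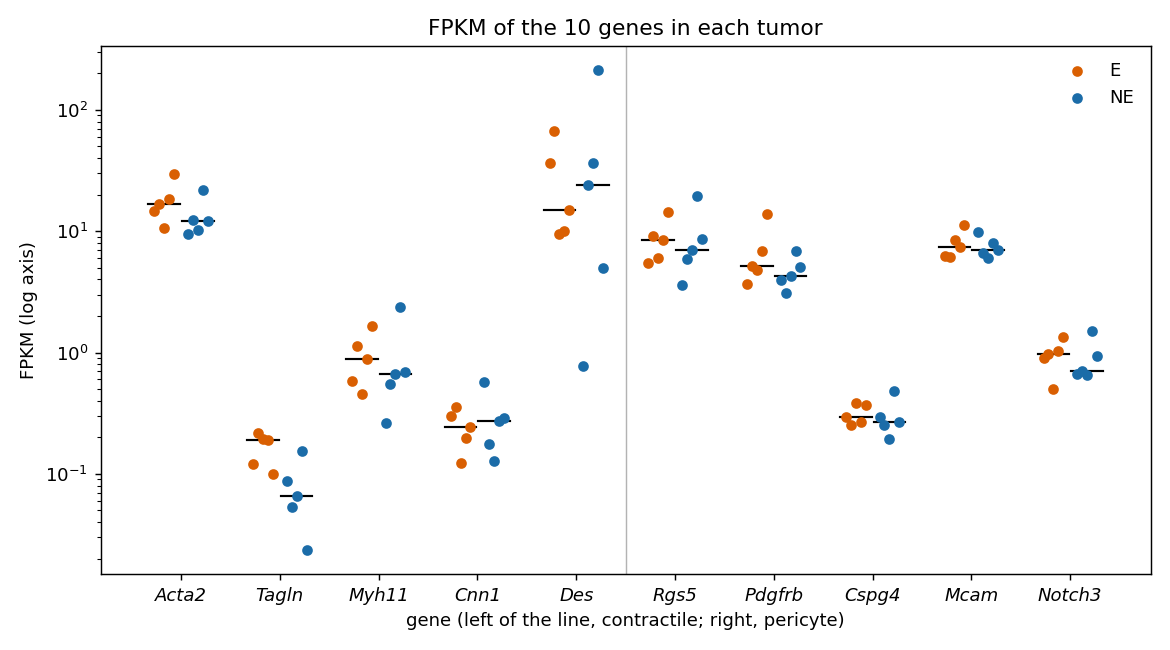
FPKM (log axis) of the 10 genes in each tumor, with E in orange and NE in blue, replicates 1 to 5 from left to right within a group, and a black line at the group median. Des spread from 0.773 to 213 FPKM, Mcam from 6.03 to 11.2 FPKM, and the groups overlapped for every gene.

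The comparison of E with NE asks whether wheel running altered these genes. A call needed a fold change of 2 or more with an FDR no higher than 0.05 in edgeR's quasi-likelihood test. None of the 9 genes tested was called, and the share called among all 13517 genes tested was 0%. At an unadjusted p of at most 0.05, 0 of the 9 genes passed, against 657 genes in all (4.86%), and by DESeq2 and limma-trend 0 of the genes of the set were called. The E and NE values overlapped for all 10 genes, but this was not counted over all genes and so marks nothing particular to the set.

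The estimates ran from -1.10 for Des (SE 1.15, FDR 0.906 by edgeR) to 0.51 for Pdgfrb (SE 0.35, FDR 0.897 by edgeR) on the log2 scale, with positive values for E higher. Pdgfrb averaged 6.85 ± 4.02 FPKM in E and 4.66 ± 1.45 FPKM in NE (SD, n = 5 each). Acta2 averaged 17.9 ± 6.99 FPKM in E and 13.2 ± 4.92 FPKM in NE (SD, n = 5 each), a log2 difference of 0.39 (SE 0.30, FDR 0.897 by edgeR). Des averaged 27.5 ± 24.4 FPKM in E and 55.9 ± 89.1 FPKM in NE (SD, n = 5 each). The sign for Des rested on NE4, as the estimate was 0.72 (FDR 0.908 by edgeR) without this tumor and 0.22 (FDR 0.826 by edgeR) with the skeletal muscle score as a covariate. The median estimate was 0.03 over the 9 genes and -0.01 over all genes.

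Tagln gave the smallest p of 10 exact permutation tests on log2(CPM + 1), 0.0397 before any adjustment (two-sided, n = 5 each, smallest p possible 0.00794), with E higher in 23 of 25 pairings of an E with an NE tumor. It rested on 1 to 8 reads, and with no filter on low counts the log2 difference was 1.03 (SE 0.49, FDR 0.820 by edgeR). The other 9 genes had exact permutation p-values of 0.254 or more.

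The next question was which of the genes followed skeletal muscle in the tumor pieces. Des did, and the 5 pericyte genes did not pass the test. A slope on the muscle score, with the group in the model, was fitted for all genes, of which 647 (4.79%) rose and 174 (1.29%) fell at an FDR of at most 0.05. Of the 9 genes tested, 2 rose, both contractile, and none fell.

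Des rose by 0.85 log2 units for each unit of the score (SE 0.05, FDR 2.09e-06 by edgeR). In 17 fits with this score, its slope ranged from 0.76 to 0.97 and was called each time. Across the tumors, the Pearson r of Des with the score was 0.99 (p = 3e-05) and Spearman's rho was 0.99 (p = 1e-05, the smallest that 100000 permutations can give), and r was 0.98 without NE4 and NE1, the tumors farthest from the median score.

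Myh11 rose by 0.28 per unit (SE 0.07, FDR 0.0496 by edgeR), just inside the threshold. The call was lost in 7 of the 10 fits that left out a single tumor, namely E2 (FDR 0.0627), E3 (FDR 0.0707), E4 (FDR 0.0766), NE1 (FDR 0.156), NE2 (FDR 0.0695), NE3 (FDR 0.0666) or NE4 (FDR 0.739, all by edgeR). The slope was 0.15 without NE4, and Myh11 was called in 8 of 17 fits in all. The r of Myh11 with the score was 0.77 (p = 0.0105 by permutation) and fell to 0.18 without NE4 and NE1, while rho was 0.55 (p = 0.105 by permutation). Acta2 had a slope of 0.11 (SE 0.05, FDR 0.226 by edgeR) and an r of 0.52 (p = 0.122 by permutation), with a rho of 0.44 (p = 0.207 by permutation) and an r of 0.03 without NE4 and NE1. Cnn1 had a slope of -0.07 (SE 0.08, FDR 0.647 by edgeR).

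Of the pericyte genes, Rgs5 had the largest slope, 0.20 (SE 0.06, FDR 0.0974 by edgeR). Its r was 0.69 (p = 0.0287 by permutation), with a rho of 0.42 (p = 0.233 by permutation) and an r of -0.15 without NE4 and NE1, so that the relation rested on those tumors. Leaving out E5 brought Rgs5 and Acta2 past the threshold (FDR 0.0289 and 0.0479 by edgeR), and leaving out NE4 took the slope of Rgs5 to 0.06 (FDR 0.896 by edgeR). Notch3 (0.11, FDR 0.230 by edgeR), Cspg4 (0.06), Pdgfrb (0.05) and Mcam (-0.04) were not called in any fit. The rho of Mcam was -0.60 (p = 0.0723 by permutation). Without NE4, its slope was -0.15 (FDR 0.226 by edgeR) and its r -0.67 (p = 0.0457 by permutation). Without NE4 and NE1, r was -0.56 for Mcam, -0.52 for Cspg4, -0.28 for Pdgfrb and -0.0028 for Notch3. The median slope was 0.11 over the 9 genes and -0.0032 over all genes.

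**Figure D2:**
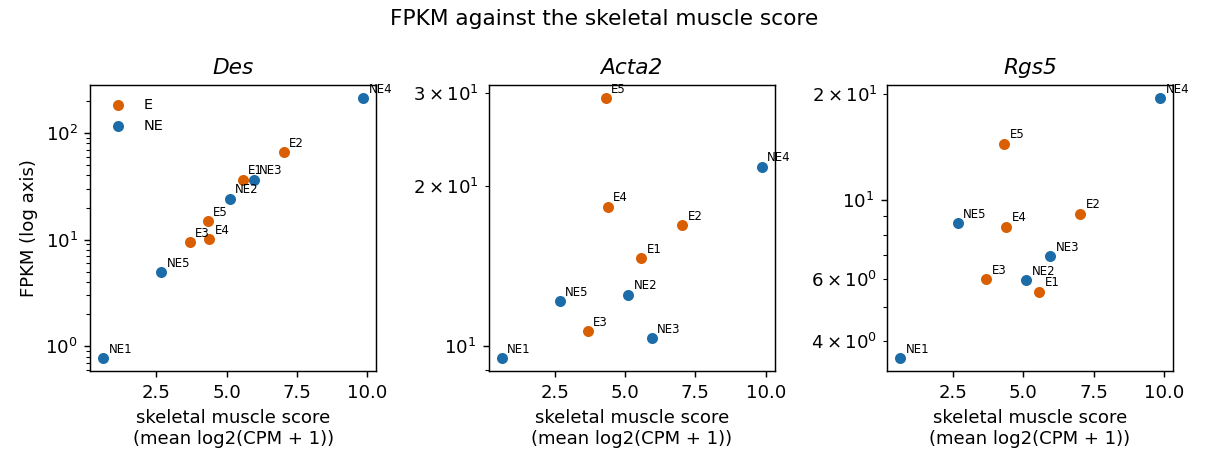
FPKM (log axis) of Des, Acta2 and Rgs5 against the skeletal muscle score of each tumor, with E in orange and NE in blue and an axis range of its own in each panel. Des climbs with the score from NE1 (0.773 FPKM) to NE4 (213 FPKM), while Acta2 and Rgs5 show no such course once NE4 and NE1 are set aside (r of 0.03 and -0.15).

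Mural cells sit on endothelial tubes, and the same fit was made with the endothelial cell score. No gene of the set was called, and few of all genes were, as 3 (0.0222%) rose and 0% fell. At an unadjusted p of at most 0.05, 7 of the 9 genes had a positive slope, against 8.97% of all genes. They were Pdgfrb (1.70, SE 0.28, unadjusted p = 0.000129, FDR 0.140 by edgeR), Acta2 (1.36, SE 0.25, FDR 0.146 by edgeR), Rgs5 (1.92, SE 0.39, FDR 0.175 by edgeR), Myh11 (2.28, SE 0.55, FDR 0.208 by edgeR), Notch3 (1.27), Cspg4 (1.02) and Mcam (0.69). All 5 pericyte genes were thus among the 7, and Des (2.46, SE 1.75, FDR 0.518 by edgeR) and Cnn1 (0.19, SE 0.79) were not. The median slope was 1.36 over the 9 genes and -0.05 over all genes, on a score that NE4 and E5 pulled apart from the other 8 tumors. A positive slope was not particular to the set. The median was larger for the markers of skeletal muscle (4.44), adipocytes (3.04) and fibroblasts (2.34). It was smaller for those of endothelial cells (0.90), Schwann cells (0.79), luminal cells (0.54) and basal or myoepithelial cells (-0.32). Without NE4, the 7 genes with an unadjusted p of at most 0.05 became 4 (Pdgfrb, Acta2, Rgs5 and Mcam), as Myh11, Cspg4 and Notch3 missed it, and under the replicate block they became 2. Without NE1, Rgs5 was called (FDR 0.0333 by edgeR).

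With the fibroblast score, 539 genes (3.99%) rose and 56 (0.414%) fell. Of the 9 genes tested, 4 rose, of both classes. Rgs5 rose by 0.79 per unit (SE 0.12, FDR 0.00778 by edgeR), Myh11 by 1.03 (SE 0.18, FDR 0.0138 by edgeR), Acta2 by 0.50 (SE 0.09, FDR 0.0153 by edgeR) and Pdgfrb by 0.52 (SE 0.12, FDR 0.0414 by edgeR). Notch3 was just outside (0.47, SE 0.12, FDR 0.0550 by edgeR), and Des (1.85, SE 0.96, FDR 0.297 by edgeR), Mcam (0.04), Cspg4 (0.14) and Cnn1 (-0.22) were not called. The median slope was 0.50 over the 9 genes and -0.01 over all genes.

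The 4 genes were still called with the skeletal muscle score as a further covariate, where the slope of Des was 0.01 (SE 0.16, FDR 0.992 by edgeR). With the endothelial cell score as a further covariate, none was called, and their FDR ran from 0.153 for Rgs5 to 0.458 for Pdgfrb by edgeR. Since the fibroblast and endothelial scores shared their 2 top tumors but for order, the part of each cell type in these slopes cannot be told apart. Of 18 fits with the fibroblast score, Acta2, Myh11 and Rgs5 were called in 15 each and Pdgfrb in 8. With the replicate number as a block (replicate block), none of the 4 was called, with an FDR of 0.0604 for Myh11, 0.0988 for Acta2, 0.106 for Rgs5 and 0.526 for Pdgfrb by edgeR. Single tumors ended calls as well. Acta2 was lost without E5 (FDR 0.0641 by edgeR), and Myh11 and Rgs5 without NE1 (FDR 0.0980 and 0.0585 by edgeR). Pdgfrb was lost in 7 of the 10 fits that left out a tumor, namely E2 (FDR 0.0693), E3 (FDR 0.0758), E4 (FDR 0.0668), E5 (FDR 0.150), NE2 (FDR 0.0571), NE3 (FDR 0.0607) or NE4 (FDR 0.117, all by edgeR).

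**Figure D3:**
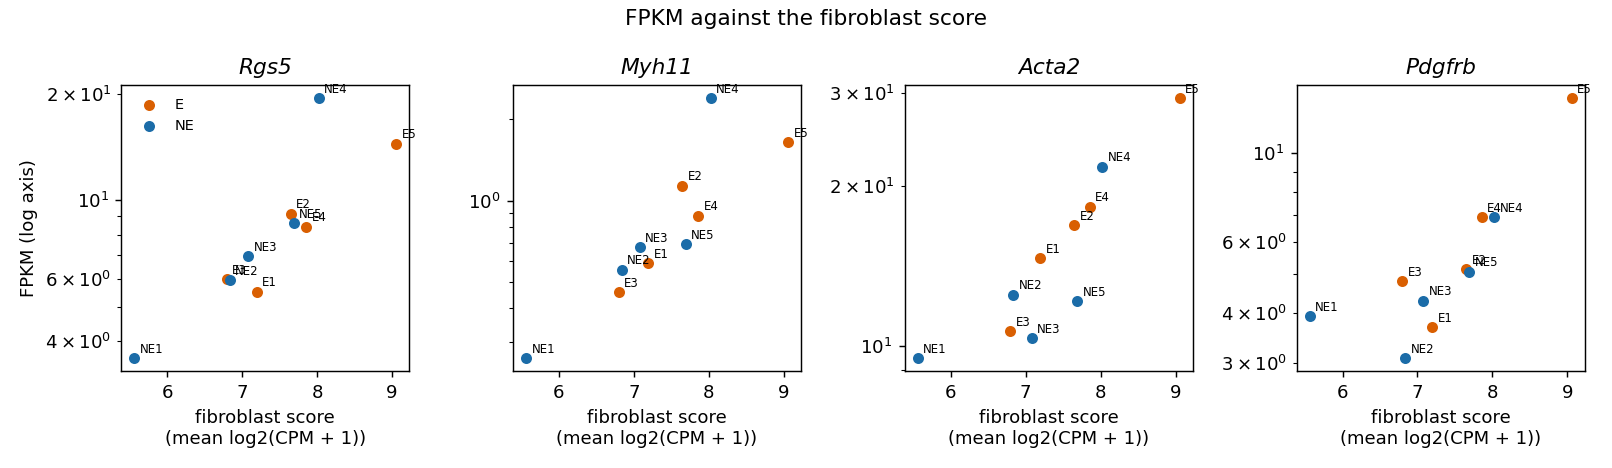
FPKM (log axis) of Rgs5, Myh11, Acta2 and Pdgfrb against the fibroblast score of each tumor, with E in orange and NE in blue and an axis range of its own in each panel. NE1 has the lowest score (5.56) and E5 the highest (9.06), with NE4 above the other tumors in Rgs5 (19.5 FPKM) and Myh11 (2.39 FPKM).

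**Figure D4:**
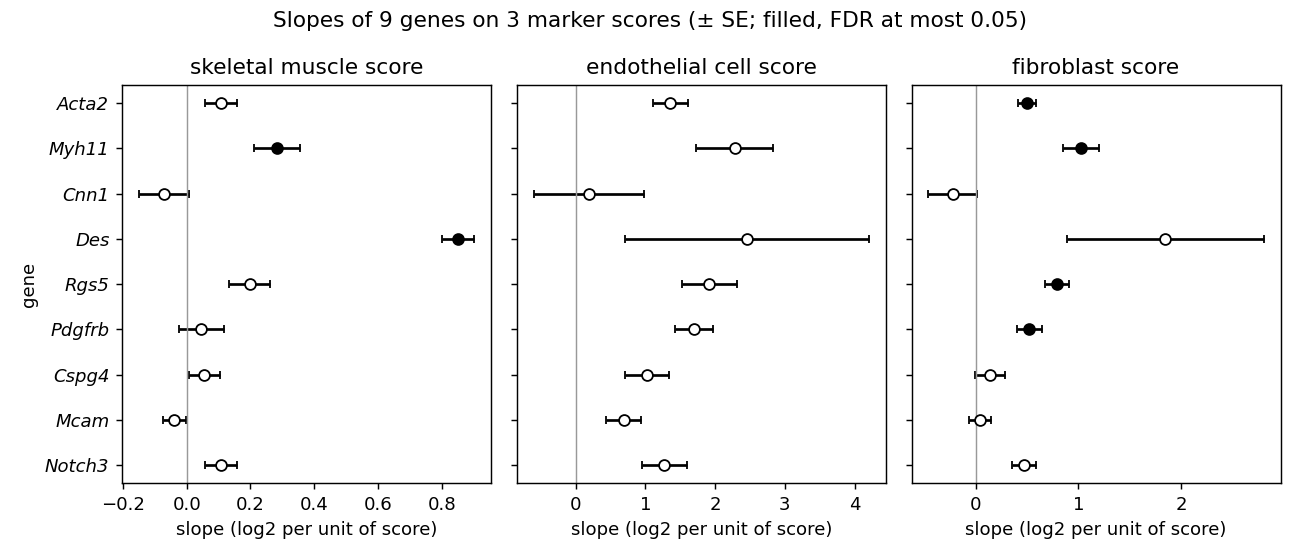
Slope (log2 per unit of score) of 9 genes on the skeletal muscle, endothelial cell and fibroblast scores, with the group in the model. Bars are 1 SE and filled points have an FDR of at most 0.05. Des and Myh11 are filled for muscle, no gene for endothelial cells, and Acta2, Myh11, Rgs5 and Pdgfrb for fibroblasts.

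The genes whose pattern was most like these were named by the Pearson r of log2(CPM + 1) over the 10 tumors, among 13517 genes and as a description without a test. For Myh11 they were Steap4 (0.99), Galnt17 (0.98), Hoxc8 (0.98), Rgs5 (0.98) and Piezo2 (0.98). For Rgs5 they were Myh11 (0.98), Steap4 (0.97), Galnt17 (0.97), Ptprb (0.97) and Nrep (0.96), of which Steap4 stood on the list of further pericyte genes and Ptprb, an endothelial phosphatase, on the endothelial list. Acta2 and Pdgfrb had other neighbors. Those of Acta2 were Adamtsl1 (0.96), Nfe2 (0.96), Islr (0.96), Mmp23 (0.96) and Itga11 (0.96), the last a collagen-binding integrin of fibroblasts. Those of Pdgfrb were Itgbl1 (0.97), Dact1 (0.97), Slc2a10 (0.96), Kit (0.95) and Fkbp14 (0.95). Myh11 and Rgs5, outside the top 5 of both, had an r of 0.88 and 0.84 with Acta2 and of 0.73 and 0.76 with Pdgfrb. Without NE4, the r of Rgs5 with Myh11 was 0.96.

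Genes related to the 10 were counted by list. Among all genes tested, 4.79% rose and 1.29% fell with the muscle score, and 3.99% rose and 0.414% fell with the fibroblast score. Calls on the muscle score leaned on NE4, as 821 genes were called with all tumors and 189 without NE4. Of 20 further smooth muscle contractile genes, all tested, 6 rose and 1 fell with the muscle score, and the 4 with the smallest p were Synpo2, an actin-bundling protein (slope 0.65, SE 0.04, 0.182 to 11.9 FPKM), Nexn, an actin-binding protein (0.41, SE 0.03), Tpm2, beta-tropomyosin (0.54, SE 0.06, 18.5 to 523 FPKM), and Hspb6, a small heat shock protein of muscle (0.46, SE 0.06). These genes are also made by striated muscle. With the fibroblast score, 1 of the 20 rose. Their median slope was 0.08 on the muscle score and 0.18 on the fibroblast score.

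Of 14 further pericyte genes, all tested, 4 rose and none fell with the muscle score. Among them were Art3 (slope 0.47, SE 0.05), Abcc9, the regulatory subunit of a potassium channel (0.44, SE 0.06), and Vtn, vitronectin (0.50, SE 0.08). None of these 3 was called with the fibroblast score, on which 4 genes of the list rose. Whether the reads of these 3 came from pericytes or from muscle fibers was not tested. The median slope of the list was 0.18 on the muscle score and 0.81 on the fibroblast score.

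Of 7 transcription factors listed for smooth muscle and pericytes (Srf, Myocd, Mrtfa, Mrtfb, Gata6, Foxs1 and Prdm6), 4 were tested. Foxs1, a forkhead factor that belongs to neither the SRF nor the myocardin family, fell with the muscle score, by 0.12 per unit (FDR 0.0392 by edgeR), and with the fibroblast score (FDR 0.0270 by edgeR). The members of those families that were tested, Srf (15.6 to 19.3 FPKM), Mrtfa (8.42 to 11.4 FPKM) and Mrtfb (5.60 to 7.52 FPKM), spanned little over the tumors and were not called. Of 16 PDGF and NOTCH ligands, targets and vessel stabilizers, 15 were tested. Heyl, a NOTCH target of mural cells, rose with the muscle score (0.25, FDR 0.0305 by edgeR) at only 0.110 to 0.486 FPKM. Angpt2, an endothelial ligand, fell by 0.12 per unit (FDR 0.0304 by edgeR). Pdgfc (-0.08, FDR 0.102 by edgeR) and Jag2 (0.17, FDR 0.128 by edgeR) were not called. With the fibroblast score, 2 of the 15 rose. This list holds Pdgfra, which is also a marker within that score, so that its own slope there is not independent of the score. No gene of these 4 lists was called between E and NE.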

How the data were processed

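RNA of 10 tumors was sequenced as paired-end libraries, and groups and replicate numbers were read from the sample labels. Per the paper's methods, reads were aligned with Hisat2 and summarized with Stringtie. The authors deposited unnormalized read counts and FPKM per gene, and each FPKM followed from the count, the gene length and the library total. The methods name the rat assembly Rnor 6.0, yet the identifiers are mouse Ensembl ones. The table's coordinates are not those of GRCm38, its build is not named, and none were converted. How strand entered the counting is not given in the sources used here.

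The 10 genes and all lists were chosen with earlier results of these data known. Tests were run with edgeR 4.0.16 in R 4.3.3, using TMM scaling, the filterByExpr filter and the quasi-likelihood test, and p-values were adjusted by Benjamini-Hochberg over 13517 genes. Calls between groups needed a 2-fold change or more together with an FDR up to 0.05, and calls on scores an FDR up to 0.05 with the group in the model. Scripts were tested on simulated data. DESeq2 1.42.0, limma 3.58.1 on log2(FPKM + 1), other filters and scalings, further scores as covariates, a replicate block and leaving out each tumor were the alternatives. The fibroblast and endothelial scores as covariates for each other were added after seeing the data. Permutation tests used scipy 1.17.1 in Python 3.11.15, exact for groups and with 100000 permutations for correlations. Shared stretches were sought on both strands in the transcripts of GENCODE M21.

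Besides the 10 genes, the rule named, per pathway list, the 4 genes with the smallest p of the muscle slope, the 5 genes most like Acta2, Myh11, Rgs5 and Pdgfrb, the gene sharing most sequence with a member, and Acta1. Tnnc2, Tnni2 and Pcsk7 were named after their values were seen. A further gene that the rule names is not reported here. The paper's results call the tumors matched pairs, while its methods describe random groups and the labels do not say what a replicate number marks. Same-numbered tumors did not all deviate together (correlations of -0.32 to 0.32 over genes).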

Additional observations from a re-analysis of the deposited data

Results flagged for a closer look

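Within a group of 5 tumors, the highest or lowest value was picked out when it lay farther from its neighbor than 0.71 of the group's range. Chance passes this limit in about 1 of 20 groups of normally spread values. Over 26 groups (10 genes and 3 scores in E and in NE), 5 values passed, against 1.3 by chance if all were independent and normally spread. Gene values were CPM without a log, and the rate for such skewed values was not determined. NE4 lay above the other NE tumors in Acta2 (50.2 CPM), Myh11 (19.1 CPM) and Des (842 CPM), and its endothelial cell score was high as well (4.02). E5 lay above the other E tumors in the endothelial cell score (3.94). Rgs5 in NE4, at 93.2 CPM, did not pass the limit.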

How the results depend on the processing

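The call of 0 genes between E and NE, and of 0 of the 10 genes, was the same under all 17 alternatives. DESeq2 gave 846 genes and limma-trend 644 genes an unadjusted p of at most 0.05. The smallest FDR was 0.000451 by DESeq2, for a gene that missed the 2-fold limit, and 0.966 by limma-trend. On the muscle score, 821 genes were called, with 1441 under the replicate block and 471 with the endothelial cell score as a further covariate. The 2 genes of the set called there became 1 (Des) with limma-trend, with the slow skeletal muscle list and with the endothelial cell score, and 3 under the replicate block, where Rgs5 was added (FDR 0.0200 by edgeR). On the endothelial cell score, 3 genes were called, 0 without the group term, under the replicate block, with limma-trend or with the fibroblast score, and 7 with the muscle score. On the fibroblast score, 595 genes were called, and 51 with the endothelial cell score, where 0 of the set were called, as under the replicate block. The paper's text speaks of matched pairs, but the labels do not say that a number marks a pair, and 1 of the 5 E tumors correlated best with the NE tumor of its own number.

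Leaving out each tumor in turn gave 189 to 1278 genes on the muscle score (lowest without NE4, highest without E5), with 1 to 4 of the set, 0 to 23 on the endothelial cell score, with 0 to 1 of the set, and 204 to 788 on the fibroblast score (lowest without NE1), with 2 to 4 of the set.

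The signs that turned were those of estimates past no threshold. Between E and NE, Myh11 (-0.02 as reported) was 0.037 without TMM, 0.28 under the replicate block, 0.29 with the muscle score and 0.077 by limma-trend. Des was 0.43 under the replicate block, 0.22 with the muscle score and 0.23 by limma-trend. Rgs5 was 0.094, 0.085 and 0.088 in the same order. Without single tumors, the log2 differences ran from -0.32 to 0.77 for Myh11, -1.72 to 0.72 for Des, -0.35 to 0.46 for Rgs5, -0.46 to 0.13 for Cnn1, -0.094 to 0.29 for Cspg4, -0.10 to 0.16 for Mcam and -0.10 to 0.35 for Notch3. With the endothelial cell score, the muscle slope of Pdgfrb was -0.031 and the fibroblast slopes of Cspg4 and Mcam were -0.25 and -0.24. Mcam had a fibroblast slope of -0.17 under the replicate block. The endothelial slope of Des was -0.54 with the muscle score and -0.19 with the fibroblast score. Without single tumors, the muscle slopes ran from -0.18 to 0.076 for Cnn1, -0.095 to 0.067 for Pdgfrb, -0.11 to 0.086 for Cspg4 and -0.0016 to 0.13 for Notch3, the endothelial slopes from -0.20 to 0.69 for Cnn1 and -2.94 to 3.42 for Des, and the fibroblast slopes from -0.35 to 0.33 for Cnn1, -0.037 to 0.23 for Cspg4 and -0.14 to 0.25 for Mcam. The r with the muscle score ran from -0.48 to 0.32 for Cnn1, -0.0091 to 0.40 for Pdgfrb and -0.39 to 0.45 for Cspg4. The causes of these shifts were not tested.

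Depth limits Tagln and Cnn1, with at most 8 and 36 reads. A count of 0 allows up to 3 reads, and counting error is all that such limits cover. The p-values measure the spread among 10 mice, with the pieces' tissue content left as it was.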
